A study of Mus musculus with 2 samples.

Results

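The S100 and annexin genes, with the EF-hand calcium buffers Calb1, Calb2 and Pvalb, were examined in whole uterus on day 4 of pregnancy. Members were taken from the deposited expression table by gene symbol, with no use of their values. The rule found 32 of 22740 genes: 16 S100 genes, 12 annexins, the 3 EF-hand buffers, and S100pbp, which encodes a protein that binds an S100 protein and is no S100 protein itself. The samples were uteri of 2 C57BL/6 mice labelled WT, 1 RNA sequencing library per animal, numbered uterus 1 and uterus 2 as in the sample titles. The labels give 1 group, with no treatment, genotype contrast or other day, and each gene is described by its level and by its spread between 2 animals. Levels are the authors' RPKM, reads scaled to transcript length and library size, which is per length and lets genes be set side by side.

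S100 proteins are small proteins with a pair of EF-hand loops that bind calcium. Most work as dimers that open a surface for a target protein when calcium rises. Annexins bind membranes rich in acidic phospholipids in a calcium-dependent way, and several carry an S100 dimer as partner. Calbindins and parvalbumin buffer calcium inside the cell, and the small calbindin S100g is a classical steroid-regulated gene of the uterus. The day 4 mouse uterus is close to the time at which the blastocyst attaches to the luminal epithelium.

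Marker genes of the uterine layers were present. All 6 stroma, 6 smooth muscle, 6 epithelium and 6 endothelium markers lay at 1 RPKM or more in both uteri, as did 58.4% of all genes. Of 6 markers of the neighbouring ovary and oviduct, 3 also did: Ovgp1 (5.78 and 9.31 RPKM), Star (2.93 and 3.87 RPKM) and Inha (1.78 and 2.73 RPKM). Cyp19a1 and Fshr were listed at 0, the list summed to 11.3 and 16.6 RPKM, and its part in the members' levels was not tested. In a whole organ, fewer cells of a type and less RNA per cell cannot be told apart. From the RPKM values, 3727222 reads were recovered for uterus 1 and 4142034 for uterus 2, with 8813 and 10446 of them in the members. These sums are lower bounds, since 4941 genes, 6 members among them, carry the smallest number of reads their values allow.

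Many members were abundant. At 1 RPKM or more in both uteri there were 21 of the 32 members (65.6%), near the 58.4% of all genes. At 10 RPKM or more there were 18 members (56.2%, against 30.4% of all genes), and at 100 RPKM or more 7 members (21.9%, against 1.92%). Listed at 0 in both uteri were 5 members (15.6%, against 23.4%). The median annexin level was 30.3 RPKM in uterus 1, and in uterus 2 it was 28.8 RPKM. The median S100 gene lay at 7.23 and 8.69 RPKM, and the median of all genes at 3.28 and 3.23 RPKM. The order of the 2 families depends on the listed zeros. With members listed at 0 in either uterus left out, the median mean was 33.7 RPKM for S100 genes and 31.0 RPKM for annexins. The S100 family was split: 8 of its 16 genes lay at 10 RPKM or more in both uteri, and 4 were listed at 0 in both. Of the 12 annexins, 8 lay at 10 RPKM or more and 1 was listed at 0. The members held 0.445% of the summed RPKM in uterus 1 and 0.467% in uterus 2, and the 4 highest of them held 58.4% and 57.7% of the members' sum.

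**Figure D1:**
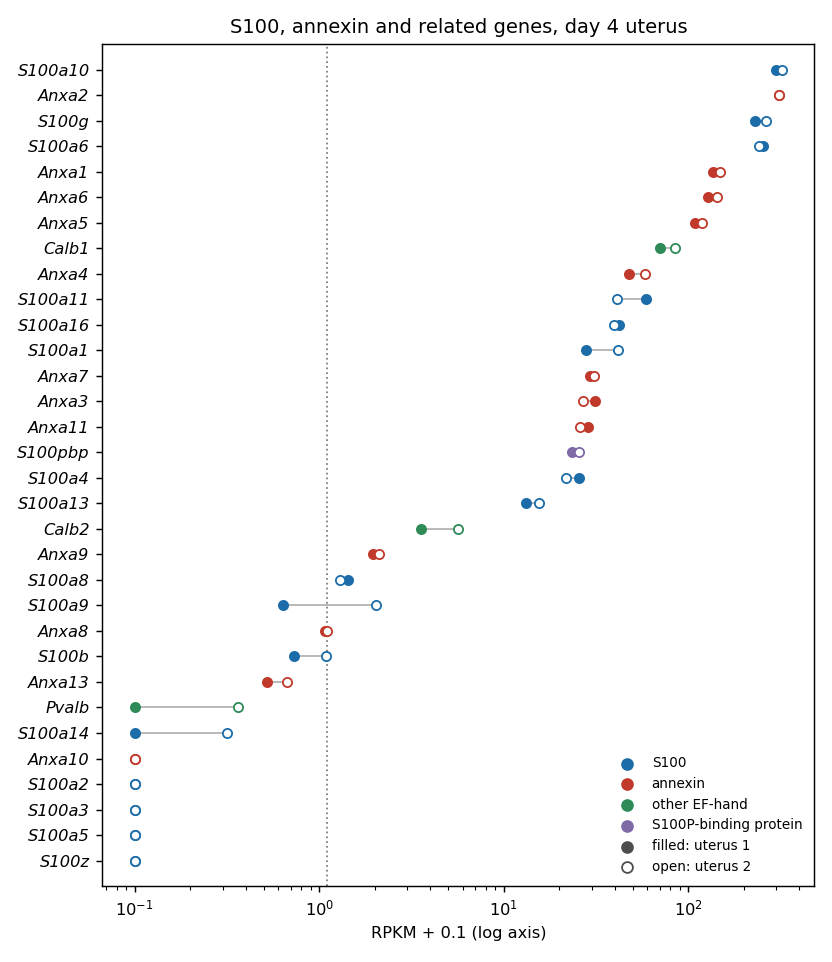
Level of each of the 32 members in uterus 1 (filled) and uterus 2 (open), as RPKM plus 0.1 on a log axis, ordered by mean and coloured by family; the dotted line marks 1 RPKM. S100a10, Anxa2, S100g and S100a6 sit between 231 and 323 RPKM, and 5 members sit at the left edge, listed at 0 in both uteri.

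S100a10 and Anxa2 were the highest members. Their proteins form a complex at the inner face of the plasma membrane, in which an S100a10 dimer joins a pair of Anxa2 molecules. S100a10 (NM_009112, chromosome 3, 93359039 to 93368567) had 299.7 RPKM in uterus 1 and in uterus 2 it had 323 RPKM, a mean of 311 ± 16.6 (SD, n = 2). Anxa2 (NM_007585, chromosome 9, 69301490 to 69339592) lay at 309.8 and 310.2 RPKM, a mean of 310.0 ± 0.291. The ranges of the 2 genes overlapped, so neither was higher beyond its spread. They ranked 142 and 144 among all 22740 genes. The S100a10 level was 0.968 of the Anxa2 level in uterus 1 and 1.04 of it in uterus 2. Both ratios were close to 1. For other pairs, S100a11 stood at 0.435 and 0.275 of Anxa1, and S100a6 at 0.822 and 0.777 of Anxa2. These are ratios of RNA levels, and the ratio of the proteins was not tested.

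S100g and S100a6 came next, at indistinguishable levels. S100g (NM_009789, chromosome X, 159399924 to 159402531) lay at 231 and 265 RPKM, a mean of 248 ± 23.9 (SD, n = 2), on 426 and 542 reads. S100a6 (NM_011313, chromosome 3, 90416816 to 90418336), also called calcyclin, lay at 255 and 241 RPKM, a mean of 248 ± 9.53, on 702 and 738 reads. Their ranges overlapped, while both S100g values lay below both Anxa2 values. The S100g gene lies inside Ctps2, which is on the opposite strand and was counted at 7.91 and 10.5 RPKM. The use of strand in counting is not given in the sources used here.

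The sequence before the start of each of these 4 genes is shown because genes of nearly the same level differed in its CG content. The 300 bases before the deposited start were read from NCBIM37, the build the submitters name as mm9, and are printed on the strand of the gene with CG dinucleotides in capitals. S100a5, the neighbour of S100a6 that was listed at 0 in both uteri, is also printed. Its listed 0 is not read as absence.
S100a10, chr3:93358739-93359038, plus strand: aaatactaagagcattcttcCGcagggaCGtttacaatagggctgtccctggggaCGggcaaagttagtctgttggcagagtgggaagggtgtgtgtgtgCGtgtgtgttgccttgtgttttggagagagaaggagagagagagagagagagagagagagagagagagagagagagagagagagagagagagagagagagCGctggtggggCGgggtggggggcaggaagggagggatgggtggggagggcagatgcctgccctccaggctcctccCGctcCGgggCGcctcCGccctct
Anxa2, chr9:69301190-69301489, plus strand: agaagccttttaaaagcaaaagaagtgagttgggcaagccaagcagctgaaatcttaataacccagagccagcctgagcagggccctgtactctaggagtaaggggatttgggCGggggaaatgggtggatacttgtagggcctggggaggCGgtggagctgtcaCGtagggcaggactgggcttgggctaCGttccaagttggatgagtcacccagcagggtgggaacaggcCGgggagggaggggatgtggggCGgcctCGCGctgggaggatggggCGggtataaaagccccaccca
S100g, chrX:159402532-159402831, minus strand: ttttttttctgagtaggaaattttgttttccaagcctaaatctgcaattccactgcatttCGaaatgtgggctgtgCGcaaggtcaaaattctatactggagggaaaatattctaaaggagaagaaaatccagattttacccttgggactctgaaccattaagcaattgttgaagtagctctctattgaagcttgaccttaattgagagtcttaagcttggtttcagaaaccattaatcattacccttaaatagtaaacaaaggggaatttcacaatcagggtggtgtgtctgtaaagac
S100a6, chr3:90416516-90416815, plus strand: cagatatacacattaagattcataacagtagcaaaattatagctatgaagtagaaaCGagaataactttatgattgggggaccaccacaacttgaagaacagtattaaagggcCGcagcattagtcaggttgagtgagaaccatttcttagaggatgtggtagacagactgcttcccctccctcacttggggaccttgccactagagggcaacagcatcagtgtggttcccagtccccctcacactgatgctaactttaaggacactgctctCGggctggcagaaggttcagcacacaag
S100a5, chr3:90412144-90412443, plus strand: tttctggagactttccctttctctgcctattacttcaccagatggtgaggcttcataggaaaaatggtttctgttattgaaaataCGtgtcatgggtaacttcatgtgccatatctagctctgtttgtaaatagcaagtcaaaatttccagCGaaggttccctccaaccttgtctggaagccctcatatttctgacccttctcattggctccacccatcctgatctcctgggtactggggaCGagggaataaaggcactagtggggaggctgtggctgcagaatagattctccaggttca

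S100a10 and Anxa2 held 10 and 9 CG dinucleotides in this window, and S100g and S100a6 held 2 and 3. S100a5 held 3, as many as S100a6. Whether CG content bears on the level of a gene was not tested. The median over 12593 protein-coding genes at 1 RPKM or more in both uteri was 18, and over the 7787 other protein-coding genes it was 3. The 21 detected members had a median of 9, with a range of 2 to 25. Only S100pbp, with 24, and Calb2, with 25, exceeded 18 among them. The 11 other members had a median of 5, and Pvalb among them held 25. Among the highest and the lowest of the 32 genes, both CG-poor and CG-richer windows occurred.

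The letters of 2 core promoter motifs were searched on both strands of the same windows. TATAAA, the core of a TATA box, was found in 8 of 32 members (25%) and in 14.0% of 20380 protein-coding windows. In S100a8 and S100a9 it began at -30 bases from the start, in S100a4 at -31, in Anxa1 at -32, in Anxa13 at -28 and in Calb2 at -36. In Anxa2 it began at -17 and in Anxa10 at -107. GGGCGG, the core of a GC box, was found in 12 members (37.5%) and in 46.7% of all windows. Anxa2 held it at 3 positions, S100a10 at 2, and S100g and S100a6 at none. These are matches of letters in a short window and say nothing of binding.

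Among the cytosolic calcium buffers, Calb1 followed S100g. Calb1 (NM_009788, chromosome 4, 15808411 to 15833856), the large calbindin, had 70.6 RPKM in uterus 1 and in uterus 2 it had 85.0 RPKM, a mean of 77.8 ± 10.2 (SD, n = 2). S100g stood 3.28 times above it in uterus 1 and 3.12 times in uterus 2. Calb2, or calretinin, lay at 3.46 and 5.58 RPKM on 19 and 34 reads. Calb1 was thus 20.4 and 15.2 times higher than Calb2. Pvalb, the parvalbumin of fast muscle and some neurons, was listed at 0 in uterus 1 and rested on 1 read in uterus 2. All 3 buffers with more than 1 read kept the same order in both animals.

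The other abundant S100 genes covered a range of about 13 to 59 RPKM. S100a11, a partner of Anxa1, lay at 59.0 and 41.0 RPKM, and S100a16 at 42.03 and 39.4 RPKM. S100a1, best known from striated muscle, lay at 27.99 and 41.6 RPKM. The ranges of S100a11, S100a16 and S100a1 overlapped from each to the next, so their order is not fixed by these 2 animals. S100a4, which binds non-muscle myosin, lay at 25.6 and 21.7 RPKM. S100a13, which takes part in the release of proteins that lack a signal peptide, lay at 13.1 and 15.4 RPKM. S100a13 was the lowest of this set in both animals. S100pbp lay at 23.4 and 25.4 RPKM. RefSeq lists a pseudogene of S100a11 (S100a11-ps), so how reads of S100a11 were assigned is uncertain.

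Annexins formed a high and a middle set below Anxa2. Anxa1 (NM_010730, chromosome 19, 20447924 to 20465161), whose protein limits inflammation through formyl peptide receptors, lay at 136 and 149 RPKM, a mean of 142 ± 9.42 (SD, n = 2). Anxa6 (NM_013472, chromosome 11, 54792464 to 54846973), an annexin with a duplicated core, lay at 128 and 144 RPKM, a mean of 136 ± 10.8. Their ranges overlapped. Anxa5 (NM_009673, chromosome 3, 36347846 to 36374809), which binds phosphatidylserine on the cell surface, lay at 108 and 119 RPKM, below both values of Anxa6. Anxa4, an annexin of epithelia, lay at 47.8 and 58.2 RPKM.

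In the middle set, Anxa7 lay at 29.4 and 30.7 RPKM, Anxa3 at 31.2 and 26.9 RPKM, and Anxa11 at 28.6 and 25.7 RPKM. The ranges of Anxa7 and Anxa3 overlapped, as did those of Anxa3 and Anxa11. Anxa9 lay far lower, at 1.85 and 2.02 RPKM on 14 and 17 reads. Its gene end overlaps Fam63a on the opposite strand by 71 bases, a gene at 21.1 and 18.6 RPKM. Anxa8 lay at 0.977 and 1.01 RPKM on 7 and 8 reads. It shares 14579 bases with A630023A22Rik on the opposite strand, a gene at 0 and 0.176 RPKM. Anxa13, an annexin of intestine and kidney, lay at 0.421 and 0.569 RPKM on 2 and 3 reads. Anxa10, known from the stomach, was listed at 0 in both uteri.

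S100a8 and S100a9, whose proteins form calprotectin and fill the cytosol of neutrophils, were close to the limit of detection. S100a8 lay at 1.33 and 1.20 RPKM on 2 reads in each uterus. S100a9 lay at 0.534 and 1.93 RPKM on 1 and 4 reads. Of 7 neutrophil markers in the table, 3 lay at 1 RPKM or more in both uteri (58.4% of all genes did). Elane, Camp and Ngp were listed at 0. Their summed level was 14.7 RPKM in uterus 1 and 19.5 RPKM in uterus 2. Cxcr2 lay at 4.71 and 4.40 RPKM, Csf3r at 3.16 and 3.48, and Retnlg at 6.43 and 11.2. All 3 exceeded S100a8 and S100a9 in both uteri, but they are the markers picked by the 1 RPKM limit. The other neutrophil markers in the table lay below S100a8 and S100a9 in both uteri.

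S100b, the S100 gene of glia and Schwann cells, lay at 0.628 and 0.990 RPKM on 4 and 7 reads. Of 6 Schwann cell markers, 3 lay at 1 RPKM or more in both uteri (58.4% of all genes did). None was at 0, and the summed level of the 6 was 6.97 and 6.79 RPKM. S100a14 was listed at 0 in uterus 1 and rested on 1 read in uterus 2. S100a2, S100a3, S100a5 and S100z were listed at 0 in both uteri. A listed 0 is not read as absence, since the ribosomal protein gene Rpl26 was also listed at 0 in both.

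Most S100 genes lay close together in the genome, at very different levels. On chromosome 3 lay 13 of the 16 S100 members, all but S100b, S100g and S100z. Of these, 11 lay in a block of 185 kb (90314956 to 90499613), 6 of them at 1 RPKM or more in both uteri. S100a10 and S100a11 lay about 2825 kb beyond it. Between the block and this pair the table has 54 other genes and 47 of them were listed at 0 in both uteri. Only Sprr2f (3.43 and 5.40 RPKM) and Sprr2g (2.80 and 1.44 RPKM) among them reached 1 RPKM in both.

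Within the block, genes with reads and genes listed at 0 alternated over a few kilobases. Here too a listed 0 is not read as absence. S100a3 ends 1067 bases before S100a4, and S100a5 ends 1113 bases before S100a6, all 4 on the plus strand. S100a3 and S100a5 were listed at 0, while S100a4 lay at 25.6 and 21.7 RPKM and S100a6 at 255 and 241 RPKM. S100a1 and S100a13 point away from each other with 104 bases between them, and S100a1 was the higher in both animals. S100a7a, which the symbol rule does not take, lay at 1.76 and 3.49 RPKM on 5 and 11 reads.

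**Figure D2:**
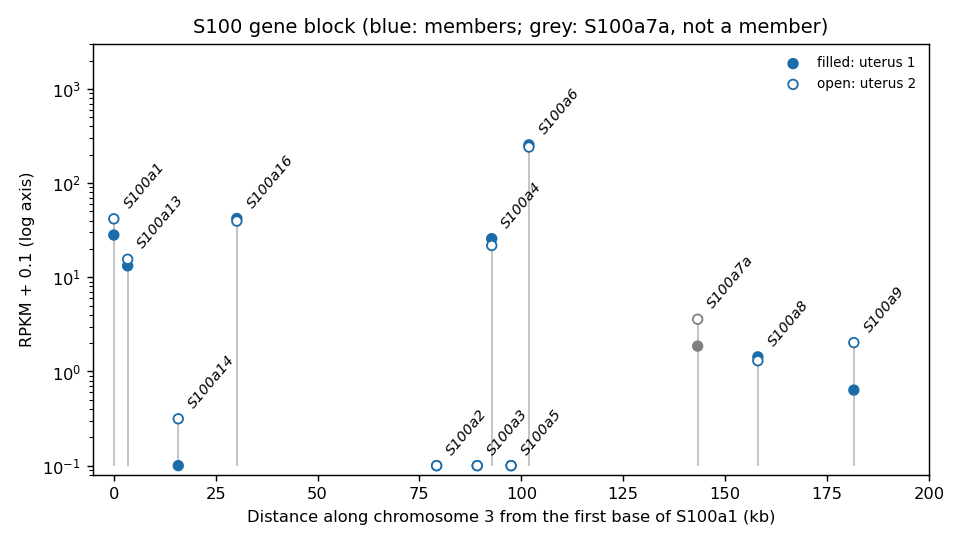
Level in uterus 1 (filled) and uterus 2 (open), as RPKM plus 0.1 on a log axis, against distance in kb along chromosome 3 from the first base of S100a1, for the 11 members of the block (blue) and S100a7a (grey). S100a6 stands alone above 100 RPKM, with S100a5 beside it at the lower edge.

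The 2 animals were compared next. Among the 18 members at 10 RPKM or more in both uteri, the SD was at the median 7.79% of the mean, and at most 27.7%. Of 22 members with a mean of at least 1 RPKM, 1 was at least 2-fold apart, against 2.60% of all 13647 such genes. It was S100a9, on 1 and 4 reads, a ratio of 3.60 with a 95% exact counting interval of 0.357 to 177. Of the same 22 members, 15 were higher in uterus 2 by any amount, against 50.1% of all genes. The median log2 ratio of uterus 2 over uterus 1 was 0.12 over these 22 members and 0.00067 over all genes.

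The reads of the libraries were then set against counting error alone by a two-sided exact binomial test, adjusted by the Benjamini-Hochberg method over 15027 genes. It compares these 2 libraries and not groups of animals. Genes for which only the smallest possible reads are known were tested on those. It called 1 of 22 members tested, against 4.57% of all genes (2.12% called higher in uterus 2), and 6 of 22 had an unadjusted p under 0.05, against 15.4%. The called member was Calb1, with 776 and 1037 reads as the smallest possible numbers. It was 1.20-fold higher in uterus 2 (95% counting interval 1.096 to 1.32, exact binomial adjusted p = 0.0042).

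The other 5 members with an unadjusted p under 0.05 did not pass the adjustment. Anxa6 had a ratio of 1.12 (interval 1.04 to 1.20, exact binomial adjusted p = 0.052), and Anxa4 one of 1.22 (1.06 to 1.40, adjusted p = 0.077). With only genes of at least 20 reads tested, the adjusted p of Anxa6 in this exact binomial test was 0.047 and 2 of 20 members were called, against 5.34% of all genes. With the smallest possible reads for every gene, Calb1 alone was called, against 3.86%. S100a1 had a ratio of 1.49 (1.09 to 2.05, exact binomial adjusted p = 0.15), and S100a11 one of 0.695 (0.520 to 0.927, adjusted p = 0.14). S100g had a ratio of 1.15 (1.01 to 1.30, exact binomial adjusted p = 0.28). For the other 16 members tested the interval included 1. Anxa2 was the most tightly bounded of all, with a ratio of 1.00 (0.936 to 1.07).

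**Figure D3:**
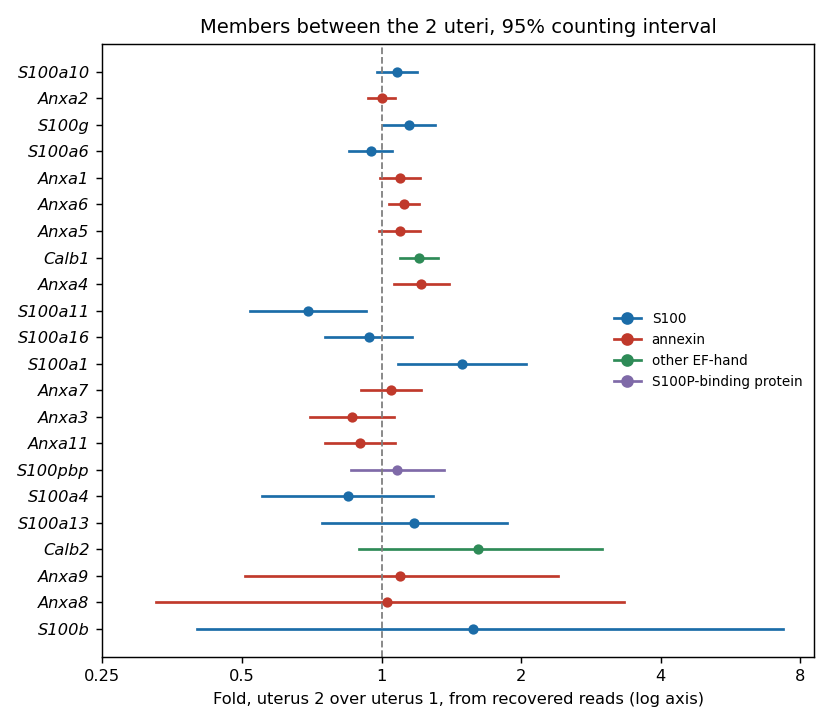
Ratio of uterus 2 over uterus 1 from recovered reads, on a log axis, with the 95% exact counting interval, for the 22 members tested, ordered by mean level and coloured by family. Intervals widen from Anxa2 (0.936 to 1.07) to S100b (0.401 to 7.34), and the Calb1 interval lies above 1.

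Markers of some tissue layers also differed between the libraries in this test. Of 6 epithelium markers, Krt18 was higher in uterus 2 (70.4 and 94.3 RPKM) and Cldn4 lower (11.4 and 5.19 RPKM), and their list summed to 255 and 284 RPKM with none at 0. The part of the epithelial share in the Calb1 and S100g values was not tested. Of the stroma markers, 2 were called higher and 1 lower in uterus 2. Of the smooth muscle markers 1 was called higher and 1 lower, and of the endothelium markers 1 lower. Over all genes tested, 4.57% were called in either direction. The log2 ratios of uterus 2 over uterus 1 were -0.48 for Col1a1, 0.34 for Dcn and 0.22 for Vim in stroma. They were 0.16 for Myh11 and -0.14 for Acta2 in smooth muscle, and -0.46 for Kdr in endothelium. Myh11 had 7977 and 9883 reads, and at such numbers the test calls small differences.

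Genes known to work with the members were taken from 7 fixed lists of 42 genes, of which 41 are in the table. At 1 RPKM or more in both uteri lay 27 of them, where 58.4% of all genes did. Of the 31 tested, 2 were called higher in uterus 2 and 2 lower, where 4.57% of all genes tested were called in either direction. Of S100 receptors, Bsg (basigin) was highest at 118 and 116 RPKM and Tlr4 lay at 12.3 and 10.996 RPKM. Ager, the receptor for advanced glycation end products, lay at 1.69 and 0.830 RPKM on 11 and 6 reads. The scavenger receptor Cd36 lay at 45.0 and 55.9 RPKM and was called higher in uterus 2 (exact binomial adjusted p = 0.00098). Of the Anxa1 receptors, Fpr1 lay at 1.38 and 2.13 RPKM and Fpr2 at 0.402 and 0.544 RPKM, on 2 to 12 reads. Anxa1 itself lay at 136 and 149 RPKM.

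Partners of the S100a10 and Anxa2 complex were unevenly expressed. Ahnak, a large scaffold that binds it at the membrane, lay at 187 and 182 RPKM, and Plat, the tissue plasminogen activator, at 63.1 and 57.8 RPKM. Plau (urokinase) lay at 10.4 and 4.91 RPKM and was called lower in uterus 2 (exact binomial adjusted p = 0.00098). Its receptor Plaur lay at 8.03 and 4.54 RPKM, and plasminogen itself (Plg), a liver product, was listed at 0. Of intracellular targets, Myh9, the non-muscle myosin that S100a4 binds, lay at 146 and 126 RPKM and was called lower in uterus 2 (exact binomial adjusted p = 3.2e-08). Cacybp, which binds S100a6, lay at 40.9 and 44.8 RPKM, Pdcd6, which binds Anxa11, at 32.0 and 33.6, and Sri (sorcin), which binds Anxa7, at 26.5 and 26.4.

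Other EF-hand genes gave a scale for the members. Calm2, a calmodulin gene, lay at 242 and 256 RPKM, so its range overlapped those of S100g and S100a6. Calm3 lay at 141 and 144 RPKM, a range that overlapped those of Anxa1 and Anxa6. In the secretory pathway, Rcn3 lay at 159 and 159 RPKM and Calu at 158 and 152. Rcn1 lay at 91.4 and 106 RPKM and was called higher in uterus 2 (exact binomial adjusted p = 0.0083). Ocm, the second parvalbumin gene, had 0 and 1 read, as did Pvalb.

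All 6 genes of epithelial calcium transport lay below S100g in both uteri. This sets them little apart, since 99.3% of all genes had a mean level below that of S100g. The entry channel Trpv6 lay at 0.891 and 2.25 RPKM on 10 and 28 reads (exact binomial adjusted p = 0.13), and Trpv5 was listed at 0. The plasma membrane pumps Atp2b1 and Atp2b4 lay at 55.8 and 58.5 RPKM and at 31.4 and 30.9 RPKM. The exchanger Slc8a1 lay at 14.5 and 14.6 RPKM. Vdr, the vitamin D receptor, lay at 0.899 and 0.540 RPKM on 15 and 10 reads. Of the 6 fused-type S100 genes in the table, skin genes with an S100 domain, 5 were listed at 0 and Tchh lay at 0.941 and 0.565 RPKM.

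**Figure D4:**
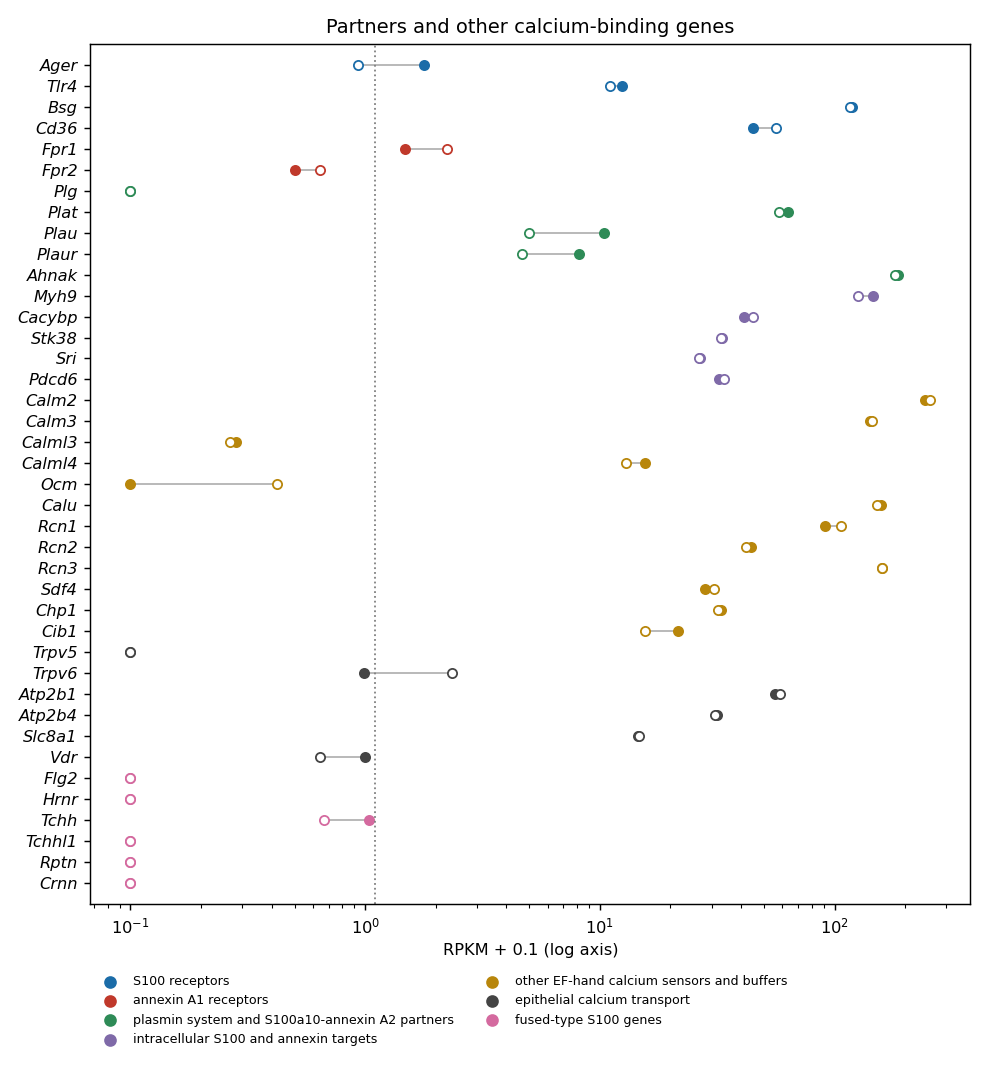
Level of the partner and comparison genes in uterus 1 (filled) and uterus 2 (open), as RPKM plus 0.1 on a log axis, coloured by list; the dotted line marks 1 RPKM. Calm2, Ahnak and Rcn3 sit between 159 and 256 RPKM, and 5 of 6 fused-type S100 genes sit at the left edge.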

How the data were processed

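Whole uterus RNA of 2 mice was extracted with TRIzol and sequenced after poly-A selection, per the labels' protocols and the design text. The authors deposited RPKM values, which are not counts. TopHat, edgeR and the build mm9 are named in the submitters' processing notes, with no role given. The annotation release and the use of strand are not given in the sources used here. The main table was used for levels, and the annotated table, with the same values for all 22740 genes, for positions. Deposited starts count from 0: 11970 of 20733 genes had a GENCODE M1 transcript start 1 base later. Positions are printed from 1.

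Reads were recovered from the RPKM values. In each of the 16104 genes with both values above 0, the scaled ratio matched a ratio of whole numbers within a relative tolerance of 1e-11. Single-exon genes gave scaling totals of 3834174 and 4256101. A common factor (at most 60) was set by a whole-number length within 0.05 (natural log) of an annotated transcript, using transcripts with both ends within 100 bases where there were any. This settled 21 of the 27 members with reads. For Calb1, Anxa6, Anxa9, Anxa13, S100b and S100pbp the smallest possible reads are given. The exact binomial test (scipy 1.17.1) used genes with at least 6 reads in sum and was tested on simulated data. PCR copies are not independent, so intervals reflect counting error alone. That the libraries are separate animals rests on the design text. Fold counts used log2 ratios with a pseudocount of 0.1 RPKM and a mean of at least 1 RPKM. Ratios of low genes are understated on this scale.

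Members with a mean of at least 1 RPKM are named with both values, the others with values or as listed at 0. The members, lists and windows were chosen with earlier results of these data known. Values of 1 partner gene and 1 marker gene are counted in their lists and not reported here. Flg of the fused-type list and Ly6g of the neutrophil list were not analysed here. No column of values was left out. Of the marker lists not named in the results, all 6 macrophage markers and 0 of 6 fat markers lay at 1 RPKM or more in both uteri.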

Additional observations from a re-analysis of the deposited data

How the results depend on the processing

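The count of detected members was 21, and stayed between 19 (2 RPKM) and 24 (0.5 RPKM, and the TPM scale). It was 21 or 23 in single libraries. The count of members at least 2-fold apart rests on few reads: from 1 it became 0 with a pseudocount of 1 RPKM, 0 at a mean of 10 RPKM and 3 without a filter. The binomial test called 2 members in place of 1 when it was limited to genes of at least 20 reads, by Anxa6, and 1 with the smallest possible reads. Family medians moved by construction when members listed at 0 in either library were left out (S100a14 and Pvalb besides those at 0 in both), to 33.7 RPKM for S100 genes, 31.0 for annexins and 41.2 for EF-hand buffers. On the TPM scale, a change of unit, they were 18.8, 69.95 and 10.7. In single libraries they ran from 7.23 to 8.69 RPKM, 28.8 to 30.3 RPKM and 3.46 to 5.58 RPKM. The 66 alternative log2 ratios of named members all kept their sign and moved by less than counting error. The signs could not have changed, so they are no check. Another pseudocount keeps the sign, and centring shifted ratios by 0.00067, less than the smallest ratio (Anxa2, 0.0019). Depth limits every statement on S100a8, S100a9, S100a14, S100b, Anxa8, Anxa13 and Pvalb. No paired analysis was possible because both libraries belong to the same group.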
